A study of Mus musculus with 20 samples.

Results

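A set of 9 genes of adrenergic and cyclic AMP signalling were followed on 20 heart arrays. They are the adrenergic receptors Adrb1, Adra1a and Adra1b, the adenylyl cyclases Adcy5, Adcy6 and Adcy9, the phosphodiesterases Pde3a and Pde4b, and the receptor kinase Grk5. Members were taken by name: every probe whose gene name in the scanner files was 1 of the 9, older synonyms included (Grk5 is spelled Gprk5 there). This gave 19 probes of 41174 on the array and 9 genes of 14563 tested. The 9 were chosen by function with the measured log2 ratios of these same arrays, and their differences between feeds and genotypes, already in view, so the values below describe them and the tests are no independent support.

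The hearts came from mice with the MuRF1 gene (MuRF1 +/+) and from mice lacking it (MuRF1 -/-). MuRF1, encoded by Trim63, is a muscle ubiquitin ligase. Each genotype had 3 hearts after 8 weeks of plain chow, 4 hearts after 3 weeks of chow holding 0.05% fenofibrate by weight, and 3 hearts after 8 weeks of that feed. Fenofibrate activates the nuclear receptor PPAR alpha. No other allele, agent or cell-restricted Cre is named in the labels, the control mice carried no treatment beyond the chow, and strain is given only for the reference RNA (C57BL/6). No chow hearts of 3 weeks were analysed here, so for the 3-week feed the drug and the shorter time on the diet cannot be told apart. The series text gives the mice as 3 to 8 weeks old, whereas the sample labels give those weeks as time on the diet, and the labels were followed. Hearts of a group are labelled as biological replicates, with nothing on litter or sex. On each array 1 heart (Cy5) was hybridised against pooled whole newborn mice (Cy3), so a level below is the log2 ratio of heart over newborn mouse at 1 probe. Such levels are not comparable between genes, only between hearts.

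Noradrenaline and adrenaline speed and strengthen the heartbeat mainly through the beta-1 receptor (Adrb1), which couples through the stimulatory G protein to adenylyl cyclase. The cyclase makes cyclic AMP, and protein kinase A then phosphorylates calcium channels, phospholamban and the contractile filaments. Phosphodiesterases break cyclic AMP down again, receptor kinases of the GRK family switch occupied receptors off, and the alpha-1 receptors (Adra1a, Adra1b) signal through a separate route of phospholipase C and calcium.

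Promoter sequences are shown for Adcy5 and Adrb1, the 2 members called lower at 8 weeks in MuRF1 +/+, and for Pde4b, the member called higher at 3 weeks. RefSeq windows (GRCm38.p6) were matched by symbol for 6 of the 9 members, 10 windows in all, since Adra1b and Pde4b have several starts. The 250 bases upstream of the start are shown 5′ to 3′ on the gene's own strand, all of which are plus strands here. Capitals mark the short cyclic AMP response motif TGACG, the GC box GGGCGG and the CCAAT box on either strand, and no marked base lay in more than 1 match. The windows lie at chr16:35154614-35154863 (Adcy5), chr19:56721867-56722116 (Adrb1) and chr4:102421305-102421554 (the Pde4b window with the lowest coordinates).
Adcy5: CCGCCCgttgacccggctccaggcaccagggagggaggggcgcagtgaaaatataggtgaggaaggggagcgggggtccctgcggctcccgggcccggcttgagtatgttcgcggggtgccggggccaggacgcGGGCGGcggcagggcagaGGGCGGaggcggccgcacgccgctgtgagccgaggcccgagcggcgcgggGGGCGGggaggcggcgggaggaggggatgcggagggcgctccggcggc
Adrb1: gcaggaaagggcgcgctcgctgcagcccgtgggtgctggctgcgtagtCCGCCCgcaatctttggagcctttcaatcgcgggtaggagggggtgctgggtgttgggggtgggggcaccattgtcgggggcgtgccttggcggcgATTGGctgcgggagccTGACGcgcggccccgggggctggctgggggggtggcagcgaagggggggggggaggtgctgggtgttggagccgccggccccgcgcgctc
Pde4b: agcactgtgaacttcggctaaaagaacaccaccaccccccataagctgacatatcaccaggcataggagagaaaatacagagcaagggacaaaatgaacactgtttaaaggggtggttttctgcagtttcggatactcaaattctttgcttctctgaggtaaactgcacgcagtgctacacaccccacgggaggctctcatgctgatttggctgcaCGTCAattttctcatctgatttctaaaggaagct
The Adcy5 window is 78.0% G or C and held 4 GC boxes, and the Adrb1 window is 74.0% G or C and held 1, against a median of 52.4% G or C over 32851 RefSeq windows of that length. The Pde4b window is 46.0% G or C and held none. Among members that passed in no comparison, Adcy9 has the window richest in G or C (78.8%) with 4 GC boxes, the windows of Adra1b are at 72.8% with 1 GC box and 41.6% with none, and that of Grk5 is at 49.6% with none. G or C content thus did not separate the members that passed the test from those that did not. TGACG was found in the windows of Adrb1, Adcy9 and Pde4b, 1 match each, and in 17.8% of all windows. GGGCGG was found in 32.7% of all windows and CCAAT in 33.8%. The full response element TGACGTCA, which contains TGACG on both strands, was in none of the 10 member windows and in 1.55% of all. The nuclear receptor motif AGGTCA was in none of the 10 and in 14.0% of all. The DR1 element, 2 copies of AGGTCA spaced by 1 base, to which PPAR alpha can bind, was in none of the 10 and in 0.0335% of all. These are letter matches in 1 window per start, not binding sites.

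Across the series, 34.0% to 52.0% of probes were well above background in the heart, and 0 heart spots were saturated. Trim63 was lower by 3.51 on chow, 3.51 at 3 weeks and 3.00 at 8 weeks on the log2 scale in the hearts labelled MuRF1 -/-, as the labels say; whether its probe lies in the deleted part is not given. Replicate 2 of MuRF1 +/+ at 8 weeks and replicate 4 of MuRF1 -/- at 3 weeks stood apart from their groups on the first 2 principal components (43.9% and 22.1% of the variance). Some results of the members are also given without them. Results of the cell markers and of other pathway genes are given only with them. Transcripts of the sex chromosomes moved with the groups. The Y-linked Ddx3y lay at 1.29 to 1.74 in the 6 chow hearts, at -1.22 to -0.17 in the 8 hearts of 3 weeks and at -0.76 to -0.41 in MuRF1 +/+ at 8 weeks. In MuRF1 -/- at 8 weeks it read 1.47, -0.68 and 1.30 in replicates 1 to 3. Xist was low where Ddx3y was high, with group means of -4.06 (MuRF1 +/+ chow) and -3.85 (MuRF1 -/- chow) against -0.29 and 0.01 at 3 weeks. For both times against chow in MuRF1 +/+, and 3 weeks against chow in MuRF1 -/-, feed and these transcripts cannot be told apart. Between 3 and 8 weeks in MuRF1 +/+ the ranges of Ddx3y given here overlap, and its part there was not tested.

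Cell markers moved too. The mean of 8 endothelial markers was 0.15 to 0.16 in MuRF1 +/+ chow hearts, 0.40 to 0.73 at 3 weeks and 0.36 to 1.27 at 8 weeks, while the MuRF1 -/- hearts gave 0.06 to 0.22 on chow, 0.39 to 0.80 after 3 weeks and 0.03 to 0.19 after 8. Against chow, 3 of the 8 rose at 3 weeks in each genotype and at 8 weeks in MuRF1 +/+, and 0 at 8 weeks in MuRF1 -/-. Of all genes, 12.3% were called higher at 3 weeks and 5.86% at 8 weeks in MuRF1 +/+. In MuRF1 -/- the shares were 14.3% and 1.08%. Of 5 fibroblast markers 3 rose at 3 weeks in MuRF1 +/+, 2 at 8 weeks, and 2 at 3 weeks in MuRF1 -/-. The mean of 6 cardiomyocyte markers lay between 3.49 and 4.08 in all 20 hearts, but 1 of them, the cardiac actin Actc1, fell at 3 weeks by 0.64 in MuRF1 +/+ (limma adjusted p = 0.0211) and 0.66 in MuRF1 -/- (adjusted p = 0.0155), and at 8 weeks by 1.64 in MuRF1 +/+ (adjusted p = 8.55e-05). The mean of 4 atrial markers was -1.91 to -1.65 on chow and -1.15 to -0.96 at 3 weeks in MuRF1 +/+, and -1.86 to -1.60 against -1.68 to -0.16 in MuRF1 -/-. Of these, Myl7 rose at 3 weeks in MuRF1 +/+ and Nppa in MuRF1 -/-. Th, Dbh and Npy, markers of sympathetic nerves, did not pass the filter on dim probes. The part of these markers in the results was not tested. In whole hearts, fewer cells of a type and less RNA per cell cannot be told apart.

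The members separated into 3 kinds. Adcy5 fell at 3 weeks in both genotypes and at 8 weeks in MuRF1 +/+, while its 8-week difference in MuRF1 -/- was -0.30 and did not pass. Adra1a fell at 3 weeks and Adrb1 at 8 weeks, both in MuRF1 +/+, and Pde4b rose at 3 weeks in MuRF1 +/+. At their brightest probes Adra1b, Adcy6, Adcy9, Pde3a and Grk5 passed the test in no comparison. Against chow, limma (Benjamini-Hochberg over all tested genes, threshold 0.05) called 3 of the 9 members at 3 weeks in MuRF1 +/+ (1 higher, 2 lower), against 24.5% of all genes (12.3% higher, 12.2% lower). At 8 weeks in MuRF1 +/+ it called 2, both lower, against 14.8% of all genes (5.86% higher, 8.97% lower). In the MuRF1 -/- hearts it called 1, lower, at 3 weeks, against 26.4% of all genes (14.3% higher, 12.1% lower). At 8 weeks it called 0, against 2.23% of all genes (1.08% higher, 1.15% lower). There 1 of the 9, Pde4b, had an unadjusted p under 0.05. It ranked 1350 of 14563 genes in that comparison, so many other genes lay under that threshold too. The median member differed by -0.19 in each of the MuRF1 +/+ comparisons and by -0.07 and -0.06 in MuRF1 -/-, while the median of all genes was within 0.03 of 0. With 9 members these counts do not stand apart from the shares of all genes. All comparisons with chow in 1 genotype share the same 3 chow hearts.

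**Figure D1:**
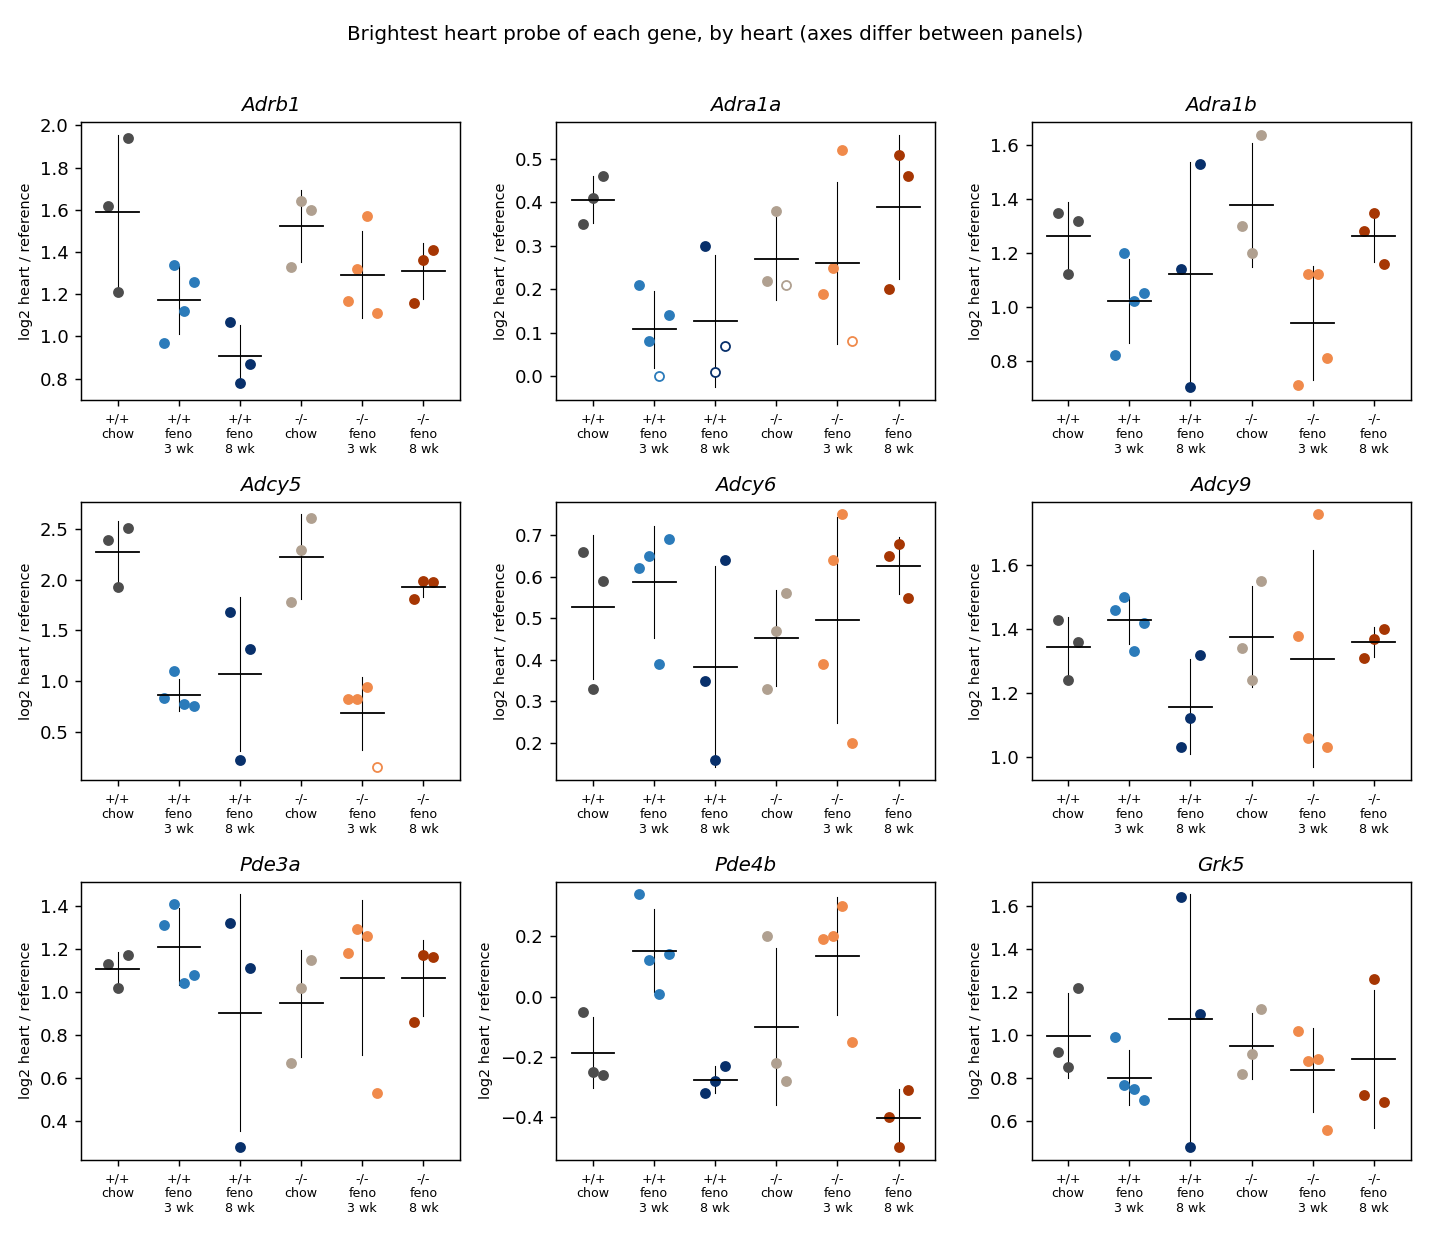
Log2 ratio of heart over newborn reference at the brightest heart probe of each member, 1 point per heart in the 6 groups (+/+ and -/- are the MuRF1 genotypes, feno is fenofibrate). Open points were not well above background in the heart, horizontal lines are group means and vertical lines 1 SD. Adcy5 is low in all hearts of 3 weeks, Pde4b is highest in most of them, and the y axes differ between panels.

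Adrb1, the beta-1 receptor and main target of noradrenaline in heart muscle, fell at 8 weeks in MuRF1 +/+. Its levels in MuRF1 +/+ were 1.62, 1.21 and 1.94 on chow, 0.97, 1.34, 1.12 and 1.26 at 3 weeks, and 1.07, 0.78 and 0.87 at 8 weeks. All 8-week hearts lay below all chow hearts, and the 3-week hearts overlapped both. The difference from chow at 8 weeks was -0.68 ± 0.16 (log2, SE; limma adjusted p = 0.0102), a 1.60-fold lower ratio, and at 3 weeks -0.42 ± 0.15 (adjusted p = 0.0529). On the 2 slides that held both groups the 8-week difference was -1.16 and -0.13. Without chow replicate 3, the highest heart, the 8-week difference was -0.51 (adjusted p = 0.0770). The call was also lost with the Y-linked level as covariate (-0.84, adjusted p = 0.155) and in the authors' series matrix (-0.82, adjusted p = 0.137). Normexp fitted on all spots (-0.68, limma adjusted p = 0.0802) and a fit of only the compared groups (-0.68, adjusted p = 0.148) lost it too. The 3-week difference passed the test without chow replicate 2 (-0.61, adjusted p = 0.00862) or 3-week replicate 2 (-0.47, adjusted p = 0.0485). It also passed without the 2 arrays that stood apart (-0.42, limma adjusted p = 0.0301). The array annotation assigns this brightest Adrb1 probe and the second one, given below, to different transcript records.

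Adrb1 levels in MuRF1 -/- were 1.33, 1.64 and 1.60 on chow, 1.17, 1.32, 1.57 and 1.11 at 3 weeks, and 1.16, 1.36 and 1.41 at 8 weeks. These groups overlapped, with differences of -0.23 (limma adjusted p = 0.287) and -0.21 (adjusted p = 0.709). A second Adrb1 probe was well above background on 3 of 3 chow arrays of MuRF1 +/+ (0.56, 0.23 and 0.43), on 1 of 4 at 3 weeks (0.04, 0.22, -0.04 and 0.16) and on 1 of 3 at 8 weeks (0.19, -0.02 and -0.11), so its difference could not be measured well. The difference between the genotypes' 8-week responses was 0.47 ± 0.23 (adjusted p = 0.300), with a 95% interval of -0.02 to 0.96.

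Adra1a, an alpha-1 receptor that signals through phospholipase C, was dim, and at no array was the reference above background. Its MuRF1 +/+ levels were 0.35, 0.41 and 0.46 on chow, 0.21, 0.08, 0.00 and 0.14 at 3 weeks, and 0.30, 0.01 and 0.07 at 8 weeks. Chow hearts lay above all hearts of both fenofibrate groups, and 3 of those 7 were not well above background. The difference was -0.30 ± 0.10 at 3 weeks (limma adjusted p = 0.0389) and -0.28 ± 0.11 at 8 weeks (adjusted p = 0.0885). MuRF1 -/- hearts read 0.22, 0.38 and 0.21 on chow, 0.19, 0.25, 0.52 and 0.08 at 3 weeks, and 0.20, 0.51 and 0.46 at 8 weeks, which overlapped. The call at 3 weeks was lost on leaving out any of chow replicates 1, 2 or 3 or 3-week replicates 2, 3 or 4, with values from -0.33 to -0.27 and adjusted p from 0.0629 to 0.137. It was also lost with the slide as a block (-0.29, adjusted p = 0.105). A second Adra1a probe was above background on 1 of 3 chow arrays and 0 of 4 arrays of 3 weeks there, and gave no measure of the difference. Without 8-week replicate 1 of MuRF1 +/+, 3 further values passed the test: 8 weeks against chow in MuRF1 +/+ (-0.37, adjusted p = 0.0235), the genotypes at 8 weeks (0.35, adjusted p = 0.0388) and the difference of the 8-week responses (0.49, adjusted p = 0.0496).

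Adra1b, the other alpha-1 receptor, gave different answers by probe and by channel. At its brightest probe the levels were 1.35, 1.12 and 1.32 in MuRF1 +/+ on chow, 0.82, 1.20, 1.02 and 1.05 at 3 weeks, and 1.14, 0.70 and 1.53 at 8 weeks. The MuRF1 -/- hearts read 1.30, 1.20 and 1.64 on chow, 0.71, 1.12, 1.12 and 0.81 at 3 weeks, and 1.28, 1.35 and 1.16 at 8 weeks. The 3-week hearts lay below all chow hearts in MuRF1 -/- and overlapped them in MuRF1 +/+. No difference passed the test: 3 weeks against chow was -0.24 ± 0.16 (limma adjusted p = 0.310) in MuRF1 +/+ and -0.44 ± 0.16 (adjusted p = 0.0503) in MuRF1 -/-. The latter passed without 3-week replicate 2 (-0.50, adjusted p = 0.0409) or replicate 3 (-0.50, adjusted p = 0.0442). It also passed without the 2 arrays that stood apart (-0.40, limma adjusted p = 0.0304).

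Behind these modest ratios both channels shifted together. The heart signal at that probe was 9.72, 9.30 and 9.88 (log2) in MuRF1 +/+ chow hearts and 7.86, 8.53, 8.34 and 8.57 at 3 weeks. The signal of the newborn reference on the same arrays was 8.37, 8.18 and 8.56, then 7.04, 7.32, 7.31 and 7.52. The heart signal in MuRF1 -/- was 9.42, 9.67 and 9.77 on chow, 7.65, 8.44, 8.30 and 7.55 at 3 weeks and 9.26, 9.95 and 9.45 at 8 weeks. The reference there read 8.12, 8.47 and 8.13, then 6.94, 7.32, 7.18 and 6.74, then 7.97, 8.59 and 8.29. MuRF1 +/+ hearts at 8 weeks read 9.40, 7.28 and 9.44 against a reference of 8.26, 6.58 and 7.91. The labels give 1 kind of reference for every array, yet at this probe its group means spanned 1.33, against a median span of 0.08 over all tested genes. A larger span was seen in 0.0343% of genes. The reference spanned 0.06 to 0.15 at the tested probes of the other 8 members.

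Heart and reference signals of Adra1b correlated at 0.98 over the 20 arrays, which form separate clusters by group and share each array's labelling and scan. When the heart channel was used alone, the probe's signal fell at 3 weeks by 1.31 in MuRF1 +/+ (SE 0.378, limma adjusted p = 0.0183) and by 1.64 in MuRF1 -/- (SE 0.378, adjusted p = 0.00396), and rose by 1.57 from 3 to 8 weeks in MuRF1 -/- (adjusted p = 0.00429). The source of the reference signal at this probe was not tested.

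**Figure D2:**
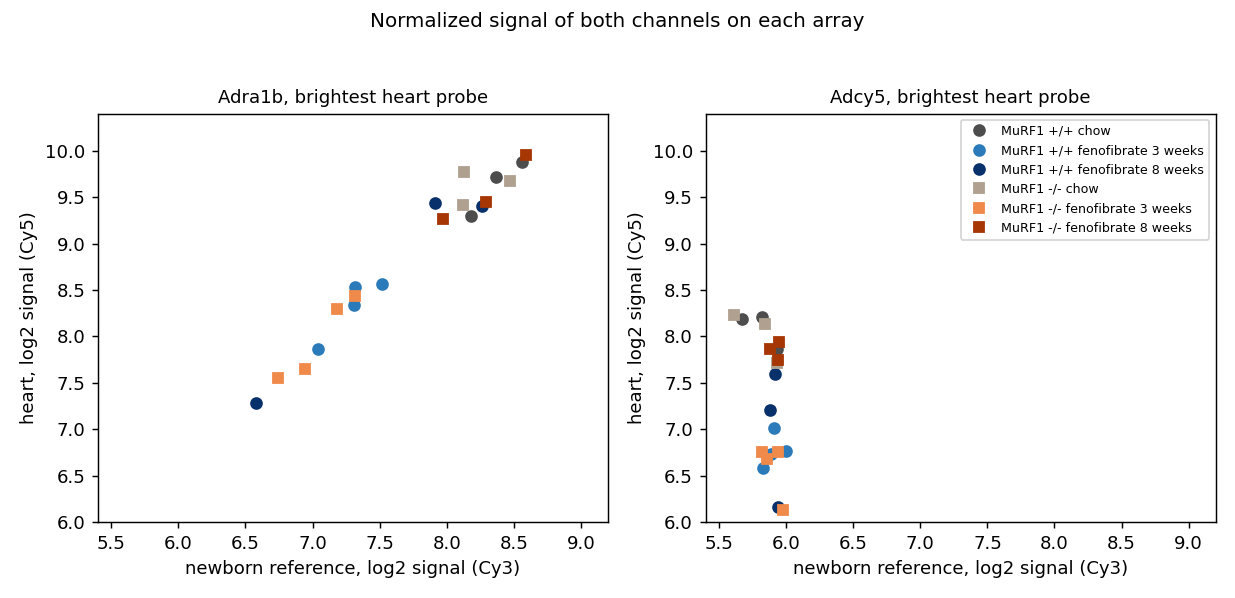
Normalized heart signal (Cy5, log2) against newborn reference signal (Cy3, log2) on each of the 20 arrays, at the brightest heart probes of Adra1b and Adcy5; circles are MuRF1 +/+ and squares MuRF1 -/-. At Adra1b the reference falls with the heart signal, from 8.56 down to 6.58 in MuRF1 +/+, whereas at Adcy5 its group means stay within 0.13 of each other.

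A second Adra1b probe has a reference below background on all 20 arrays. It was well above background in the heart on 3 of 3 MuRF1 +/+ chow arrays (0.63, 0.44 and 0.67) and on 0 of 4 at 3 weeks (0.06, -0.02, 0.01 and 0.11). The same probe in MuRF1 -/- was above background on 2 of 3 chow arrays (0.15, 0.69 and 0.45), 0 of 4 at 3 weeks (-0.06, -0.02, 0.00 and 0.09) and 2 of 3 at 8 weeks (0.29, 0.64 and 0.19). Chow was higher than 3 weeks by at least 1.36-fold in MuRF1 +/+. In MuRF1 -/- not every chow or 8-week heart was itself above background, so no bound is given there. The probe passed the filter through the groups where it is high, so no test is given. Such a bound sets the measured group's mean heart signal against the dimmest signal still called well above background on the other arrays, or the probe's own where that was higher. It describes these hearts only and carries no measure of their spread. The 8-week hearts of MuRF1 +/+ read 0.49, -0.03 and 0.07, of which 1 was above background.

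Adcy5, 1 of the 2 main cyclases of heart muscle and inhibited by calcium, showed the largest differences of the 9. In MuRF1 +/+ it stood at 2.39, 1.93 and 2.51 on chow, 0.83, 1.10, 0.77 and 0.75 at 3 weeks, and 1.68, 0.22 and 1.32 at 8 weeks. The MuRF1 -/- hearts stood at 1.78, 2.29 and 2.61 on chow, 0.82, 0.82, 0.94 and 0.15 at 3 weeks, and 1.81, 1.99 and 1.98 at 8 weeks. All fenofibrate hearts of MuRF1 +/+, and all 3-week hearts of MuRF1 -/-, lay below every chow heart of their genotype. The 8-week hearts of MuRF1 -/- lay among the chow hearts.

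At 3 weeks the Adcy5 ratio was 2.67-fold lower than on chow in MuRF1 +/+ (log2 difference -1.42 ± 0.27, limma adjusted p = 0.00107) and 2.92-fold lower in MuRF1 -/- (-1.55 ± 0.27, adjusted p = 0.000482). Within the slides that held both groups it was -1.56 and -0.83 in MuRF1 +/+ and ran from -1.67 to -0.96 over 3 slides in MuRF1 -/-. The difference between these responses was -0.13 ± 0.38, with a 95% interval of -0.95 to 0.69. With the mean of the Y-linked Ddx3y and Eif2s3y as a covariate the 3-week difference was -1.73 (limma adjusted p = 0.0671) in MuRF1 +/+, and the 8-week one -1.50 (adjusted p = 0.153), while at 3 weeks in MuRF1 -/- it was -1.86 (adjusted p = 0.0446). The MuRF1 -/- call at 3 weeks was lost with normexp fitted on all spots (-0.97, adjusted p = 0.0771) and in the authors' series matrix (-1.19, adjusted p = 0.114).

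After 8 weeks Adcy5 was still lower than chow in MuRF1 +/+, by 1.20 ± 0.29 (limma adjusted p = 0.0109), a 2.30-fold lower ratio. That call depended on single arrays and on the processing. Without replicate 2, at 0.22, the difference was -0.78 (adjusted p = 0.0537), and without chow replicate 3 it was -1.09 (adjusted p = 0.0656). On 2 slides it was -2.29 and -0.25. The call was also lost with normexp fitted on all spots (-1.2, limma adjusted p = 0.0603) and with Agilent's ratio (-1.26, adjusted p = 0.131). The series matrix (-1.31, adjusted p = 0.144) and a fit of only the compared groups (-1.2, adjusted p = 0.167) lost it too. For MuRF1 -/- the 8-week difference was -0.30 ± 0.29 (adjusted p = 0.813), and from 3 to 8 weeks Adcy5 rose by 1.25 ± 0.27 (adjusted p = 0.00202), 1.18 and 1.83 on 2 slides. From 3 to 8 weeks in MuRF1 +/+ the difference was 0.21 ± 0.27 (adjusted p = 0.625), and 0.64 (adjusted p = 0.0170) without the 2 arrays that stood apart. Replicate 2 of MuRF1 -/- at 8 weeks, with Ddx3y at -0.68 as in the 3-week hearts, had Adcy5 at 1.99, beside 1.81 and 1.98 in the other hearts with Ddx3y at 1.47 and 1.30. That is 1 heart, and the part of the Y-linked transcripts in the Adcy5 differences was not tested. A second Adcy5 probe behaved alike, with -1.24 and -1.02 at 3 and 8 weeks in MuRF1 +/+, -1.24 and -0.16 in MuRF1 -/-, and 1.08 from 3 to 8 weeks in MuRF1 -/-. These ratios carry an offset added to the background-corrected signal, which makes differences of dim probes smaller.

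Adcy6, the other main cyclase of heart muscle, and Adcy9, a widely expressed cyclase, passed in no comparison. Adcy6 ran from 0.16 to 0.75 over the 20 hearts, and its groups overlapped in each comparison. Its differences from chow were 0.06 and -0.15 in MuRF1 +/+ and 0.04 and 0.17 in MuRF1 -/-, at 3 and 8 weeks. For 3 weeks in MuRF1 +/+ the 95% interval of Adcy6 ran from -0.22 to 0.34, outside the fall seen for Adcy5. Adcy9 ran from 1.03 to 1.76, with 3-week differences of 0.08 in MuRF1 +/+ and -0.07 in MuRF1 -/-. At 8 weeks in MuRF1 +/+ it read 1.03, 1.12 and 1.32, below all 3-week hearts of that genotype (1.33 to 1.50), a difference of -0.27 ± 0.14 (limma adjusted p = 0.191). Of the other adenylyl cyclases on the array, 3 of 7 were bright enough to test, and 1 of these, Adcy7, passed. It rose at 3 weeks by 0.39 in MuRF1 +/+ (limma adjusted p = 0.0123) and 0.46 in MuRF1 -/- (adjusted p = 0.00424), and fell from 3 to 8 weeks by 0.36 (adjusted p = 0.0252) and 0.75 (adjusted p = 5.63e-05).

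**Figure D3:**
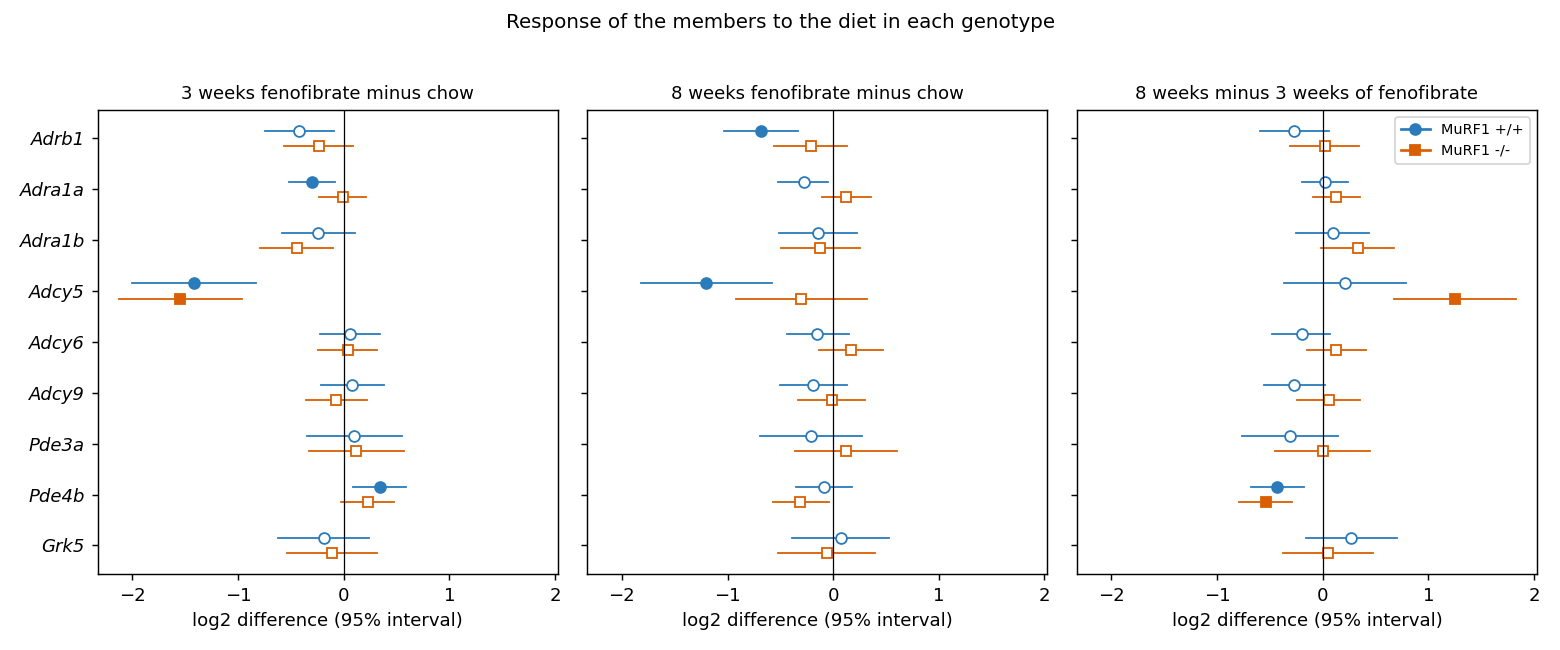
Log2 differences of the 9 members with 95% intervals, for 3 weeks of fenofibrate against chow, 8 weeks against chow, and 8 against 3 weeks; circles are MuRF1 +/+ and squares MuRF1 -/-, and filled symbols passed the limma test at an adjusted p under 0.05. Adcy5 lies at -1.42 and -1.55 at 3 weeks, then at -1.20 and -0.30 at 8 weeks.

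Pde4b, a phosphodiesterase specific for cyclic AMP, was the member that was higher at 3 weeks. At its brightest probe it stood at -0.05, -0.25 and -0.26 in MuRF1 +/+ on chow, 0.34, 0.12, 0.01 and 0.14 at 3 weeks, and -0.32, -0.28 and -0.23 at 8 weeks. Levels of MuRF1 -/- hearts were 0.20, -0.22 and -0.28 on chow, 0.19, 0.20, 0.30 and -0.15 at 3 weeks, and -0.40, -0.50 and -0.31 at 8 weeks. Every 3-week heart exceeded every 8-week heart of its genotype. In MuRF1 +/+ every 3-week heart also exceeded every chow heart, whereas in MuRF1 -/- 1 chow heart lay among them.

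The Pde4b rise at 3 weeks was 0.34 ± 0.12 in MuRF1 +/+ (limma adjusted p = 0.0402; 0.37 and 0.39 on 2 slides), and the difference was 0.23 ± 0.12 in MuRF1 -/- (adjusted p = 0.156). From 3 to 8 weeks it fell by 0.43 ± 0.12 in MuRF1 +/+ (adjusted p = 0.0165; -0.44 and -0.37 on 2 slides) and by 0.54 ± 0.12 in MuRF1 -/- (adjusted p = 0.00202; -0.70 and -0.16 on 2 slides). Limma called 1 of the 9 members between 8 and 3 weeks in MuRF1 +/+, lower, against 17.7% of all genes (8.1% higher, 9.62% lower). It called 2 in MuRF1 -/- (1 higher, 1 lower), against 31.5% of all genes (13.5% higher, 18% lower). The MuRF1 +/+ rise at 3 weeks was lost on leaving out chow replicate 2 or 3, or any of replicates 1, 2 and 4 of the 3-week hearts, with values from 0.28 to 0.35 and adjusted p from 0.0599 to 0.149. The fall from 3 to 8 weeks there was -0.36 (adjusted p = 0.0602) without 3-week replicate 1. With the Y-linked covariate the rise at 3 weeks was 0.25 (adjusted p = 0.502) and the fall from 3 to 8 weeks in MuRF1 -/- 0.47 (log2 difference -0.47, adjusted p = 0.0737). The MuRF1 -/- difference at 3 weeks passed the test without chow replicate 1 (0.38, adjusted p = 0.0214) or 3-week replicate 4 (0.33, adjusted p = 0.0341).

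Probe 3 of Pde4b set the 3-week hearts apart. Its heart signal was well above background in 8 of 8 hearts of 3 weeks and in 0 of the 12 others. Levels in MuRF1 +/+ were -0.35, -0.37 and -0.43 on chow, 0.49, 0.36, 0.34 and 0.32 at 3 weeks, and -0.26, -0.29 and -0.23 at 8 weeks. Levels in MuRF1 -/- were -0.18, -0.13 and -0.43 on chow, 0.44, 0.25, 0.48 and 0.27 at 3 weeks, and -0.20, -0.32 and -0.29 at 8 weeks. At 3 weeks it was higher than on chow by at least 1.61-fold in MuRF1 +/+ and at least 1.50-fold in MuRF1 -/-. It was higher than at 8 weeks by at least 1.52-fold in MuRF1 +/+ and at least 1.55-fold in MuRF1 -/-. It passed the filter only through the 3-week hearts, where it is high, so no test is given. How many of all probes split the hearts in this way was not counted. Of all probes, 34.4% to 52.0% were above background on the 3-week arrays and 34.0% to 44.2% on the others. Without the 2 arrays that stood apart these ranges were 40.9% to 52.0% and 36.9% to 44.2%.

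Other Pde4b probes moved less. A second probe differed from chow by 0.09 and 0.07 at 3 weeks (limma adjusted p = 0.286 and 0.448) and fell from 3 to 8 weeks by 0.19 in MuRF1 +/+ (adjusted p = 0.0380) and by 0.21 in MuRF1 -/- (adjusted p = 0.0148). Probe 4 was above background in no heart. The array annotation assigns probe 3 to a different transcript record from probes 1, 2 and 4. Which transcript forms each probe detects in these hearts was not tested.

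**Figure D4:**
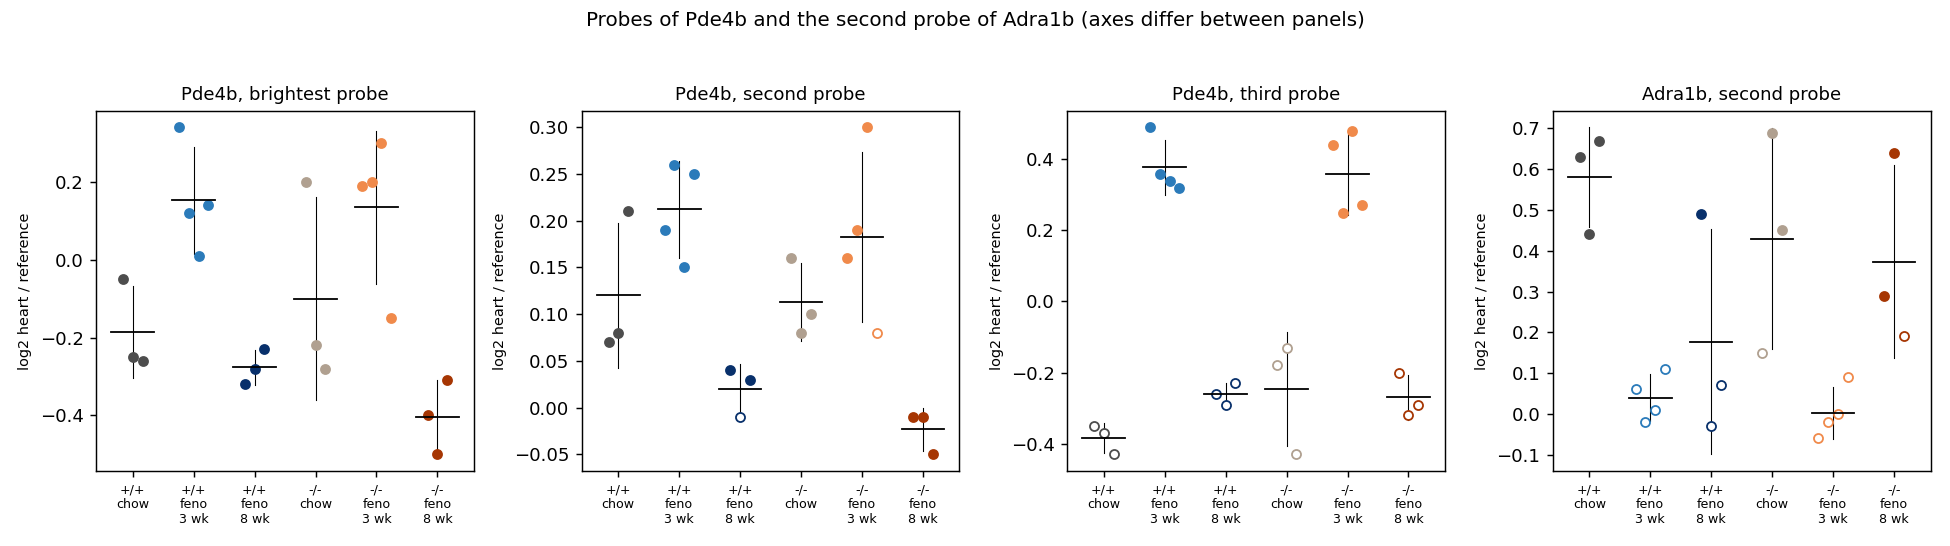
Log2 ratio of heart over newborn reference for 3 probes of Pde4b and the second probe of Adra1b, 1 point per heart in the 6 groups; open points were not well above background in the heart, horizontal lines are means and vertical lines 1 SD. At probe 3 of Pde4b the 8 hearts of 3 weeks are filled and lie at 0.25 to 0.49, and the 12 others are open, at -0.13 or below.

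Pde3a, a phosphodiesterase of both cyclic AMP and cyclic GMP and the target of inotropic drugs, passed in no comparison. Its levels were 1.13, 1.02 and 1.17 on chow, 1.31, 1.41, 1.04 and 1.08 at 3 weeks and 1.32, 0.28 and 1.11 at 8 weeks in MuRF1 +/+. MuRF1 -/- levels were 0.67, 1.02 and 1.15 on chow, 1.18, 1.29, 1.26 and 0.53 at 3 weeks, and 0.86, 1.17 and 1.16 at 8 weeks. The groups overlapped in every comparison, and the 2 lowest hearts were on the 2 arrays that stood apart. A second Pde3a probe was above background on 2 arrays and another on 0.

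Grk5, a kinase that phosphorylates active receptors and is abundant in heart, ran from 0.48 to 1.64, both ends in MuRF1 +/+ hearts at 8 weeks (1.64, 0.48 and 1.10). Its differences from chow ran from -0.19 to 0.07 over the 4 feed comparisons, and its second probe from -0.20 to 0.01. From 3 to 8 weeks in MuRF1 +/+ the difference was 0.27 ± 0.20 (limma adjusted p = 0.391), and 0.56 (adjusted p = 0.0292) without 8-week replicate 2.

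No member passed the test between the genotypes. Limma called 0 of 9 between MuRF1 -/- and MuRF1 +/+ on chow, at 3 weeks and at 8 weeks. Of all genes it called 0.0893% on chow (0.0343% higher, 0.0549% lower in MuRF1 -/-), 0.405% at 3 weeks (0.364% higher, 0.0412% lower) and 0.357% at 8 weeks (0.185% higher, 0.172% lower). In the same order, 0, 0 and 3 of the 9 had an unadjusted p under 0.05. The 3 were Adcy5, Adrb1 and Adra1a, which ranked 1064, 2054 and 2214 of 14563 genes. Many other genes thus lay under that threshold too, and their share was not counted. On chow the differences ran from -0.16 to 0.12 and at 3 weeks from -0.18 to 0.15. At 8 weeks Adcy5 was at 1.81 or more in all MuRF1 -/- hearts and at 1.68 or less in all MuRF1 +/+ hearts, a difference of 0.85 ± 0.29 (limma adjusted p = 0.118, 95% interval 0.23 to 1.47). Over 19 alternative runs this difference ran from 0.43 to 1.15, with limma adjusted p from 0.0124 to 0.644, and passed in 2. The largest, 1.15 (adjusted p = 0.0124), came without MuRF1 +/+ replicate 1. Adrb1 was at 1.16 or more against 1.07 or less, a difference of 0.40 ± 0.16 (limma adjusted p = 0.164). How many of all genes separate 3 hearts from 3 in this way was not counted, so the separation only describes these hearts. The difference of the 8-week responses was 0.90 ± 0.41 for Adcy5 (adjusted p = 0.275). It passed for 0 of 9 members and 0% of all genes, as did that of the 3-week responses. For these, 2 and 0 of the 9 had an unadjusted p under 0.05. The 2 were Adra1a and Adcy5, which ranked 1117 and 2147 of 14563 genes. Within the 2 slides that held both groups Adcy5 differed by 0.13 and 0.66. Beside this, Ddx3y at 8 weeks differed by 1.30 (adjusted p = 0.0892, groups overlapping) and the median differences of the marker lists were -0.72 for fibroblasts, -0.70 for smooth muscle and pericytes and -0.54 for endothelium, with 0 genes of these lists called. Their part was not tested.

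Other genes of the pathway were taken from lists by function, 114 genes of which 96 were bright enough to test. These lists too were drawn up with results of these hearts known. At 3 weeks 16 rose and 13 fell in MuRF1 +/+, and 16 rose and 10 fell in MuRF1 -/-, which with 96 genes is near the shares of all genes given above. At 8 weeks 3 rose and 9 fell in MuRF1 +/+, and 0 rose and 2 fell in MuRF1 -/-, Pde4a (-0.82, limma adjusted p = 0.0240) and Prkce (-0.42, adjusted p = 0.0494). None of the 96 differed between the genotypes on any feed. Their median difference lay within 0.06 of 0 in each of these comparisons, close to that of all genes.

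Upstream, none of the other adrenergic receptors bright enough to test passed in any comparison. Gnas, the stimulatory G protein subunit, fell at 3 weeks in MuRF1 +/+ by 0.68 ± 0.18 (limma adjusted p = 0.0111) and rose by 0.63 from 3 to 8 weeks (adjusted p = 0.0228), and in MuRF1 -/- its 3-week difference was -0.22 (adjusted p = 0.400).

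Grk2, the main receptor kinase beside Grk5, passed the test where Grk5 did not. It stood at 0.78, 0.63 and 0.88 on chow and -0.50, 0.14, 0.12 and -0.10 at 3 weeks in MuRF1 +/+, and at 0.95, 0.83 and 1.13 against -0.25, -0.14, 0.11 and -0.10 in MuRF1 -/-. No 3-week heart reached a chow heart. The falls were 0.85 ± 0.13 (limma adjusted p = 0.000188) and 1.06 ± 0.13 (adjusted p = 1.65e-05). From 3 to 8 weeks Grk2 rose by 0.62 (adjusted p = 0.00295) and 0.71 (adjusted p = 0.000582).

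Downstream, protein kinase A targets of contraction moved in both directions. Hspb6, a small heat shock protein of muscle, fell at 3 weeks by 1.36 in MuRF1 +/+ (limma adjusted p = 0.00107) and 1.10 in MuRF1 -/- (adjusted p = 0.00483), fell at 8 weeks by 1.01 in MuRF1 +/+ (adjusted p = 0.0218) and rose from 3 to 8 weeks by 1.13 in MuRF1 -/- (adjusted p = 0.00310). Cacnb2, a subunit of the L-type calcium channel, rose at 3 weeks by 0.92 (adjusted p = 0.00283) and 1.16 (adjusted p = 0.000399) and fell from 3 to 8 weeks by 0.93 and 1.06. The potassium channel subunit Kcne1 rose at 3 weeks by 0.61 in MuRF1 +/+ (adjusted p = 0.00849) and 0.98 in MuRF1 -/- (adjusted p = 0.000202). Its partner Kcnq1 fell at 3 weeks by 0.58 (adjusted p = 0.0444) and 0.63 (adjusted p = 0.0284), and at 8 weeks by 1.03 in MuRF1 +/+ (adjusted p = 0.00498), where MuRF1 -/- differed by -0.50 (adjusted p = 0.310). Bves, a cyclic AMP-binding membrane protein, fell at 3 weeks by 0.53 in MuRF1 +/+ (adjusted p = 0.0355) and 0.60 in MuRF1 -/- (adjusted p = 0.0192), and at 8 weeks by 0.96 in MuRF1 +/+ (adjusted p = 0.00339), with -0.35 (adjusted p = 0.486) in MuRF1 -/-. Kcnj3, a channel opened by Gi, fell at 8 weeks in MuRF1 +/+ by 0.82 (adjusted p = 0.0103), with -0.11 (adjusted p = 0.942) in MuRF1 -/-. The difference of the 8-week responses passed for 0 of the 96 genes, so no difference between the genotypes is shown. The 8-week hearts of MuRF1 +/+ include an array that stood apart.

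On the alpha-1 route, Itpr2, a calcium release channel, rose at 3 weeks by 1.01 in MuRF1 +/+ (limma adjusted p = 0.00521) and 0.73 in MuRF1 -/- (adjusted p = 0.0304). Akap12, an anchor of protein kinase A, rose at 3 weeks by 0.85 in MuRF1 +/+ (adjusted p = 0.0269) and 0.96 in MuRF1 -/- (adjusted p = 0.0129). From 3 to 8 weeks it fell by 1.25 in MuRF1 -/- (adjusted p = 0.00184), with -0.23 (adjusted p = 0.593) in MuRF1 +/+. Akap6, the anchor of the nuclear envelope, fell from 3 to 8 weeks in MuRF1 +/+ by 0.71 (adjusted p = 0.0463), with -0.16 (adjusted p = 0.644) in MuRF1 -/-. Whether the change from 3 to 8 weeks differs between the genotypes was not tested.

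Among genes of catecholamine synthesis and clearance, Maob, a monoamine oxidase, fell at 3 weeks by 0.77 in MuRF1 +/+ (limma adjusted p = 0.00291) and 1.19 in MuRF1 -/- (adjusted p = 6.80e-05). Between 3 and 8 weeks it rose by 0.64 (adjusted p = 0.0126) and 1.09 (adjusted p = 0.000120). The enzymes of synthesis Th and Dbh did not pass the filter.

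The members with the widest spread of group means were Adcy5 (1.60), Adrb1 (0.68) and Pde4b (0.55), and the genes most like each over the 20 arrays were ranked by Pearson correlation. The points share arrays and fall into clusters by group, so the values only describe. Closest to Adcy5 were Mrpl4, a mitochondrial ribosomal protein (0.980), Rapsn, a scaffold of acetylcholine receptors (0.979), and Tmem201 (0.978). Without the 2 arrays that stood apart they read 0.980, 0.975 and 0.969 over 18 arrays. Closest to Adrb1 were Lrrc38 (0.895), BC034090 (0.887) and Polr1e, a subunit of RNA polymerase I (0.887). Closest to Pde4b were a transcript named AK031844 in the files (0.875), Calr, the calcium-binding chaperone calreticulin (0.869), and Usp25, a deubiquitinase (0.868).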

How the data were processed

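Spot intensity was deposited by the authors per array, from Agilent Feature Extraction 9.5.3.1 per the file headers, with Cy5 for heart and Cy3 for newborn reference per the labels, although the labelling protocol text names Cy3. Agilent's deposited log10 ratio and the authors' deposited log2 series matrix, made in a way the sources here do not state, served as alternatives. Flags per spot, a deposited score of 0 or 1, marked outliers and spots above background.

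Mean minus median background intensity was corrected by normexp (offset 50) and normalized by loess within each array in limma 3.58.1 (R 4.3.3), with control spots at weight 0, 105 to 423 outlier spots per array missing and, on 1 array, 7 spots whose background exceeded their signal by over 50 left out. Spots of a probe were averaged, and a gene is its brightest heart probe, tested if well above background on at least 3 arrays. Names came from the files and RefSeq (GRCm38.p6). A limma model of the 6 group means over 20 arrays with trended variance gave 11 comparisons, each adjusted by Benjamini-Hochberg at 0.05; it was tested on simulated data. Further probes of a member were fitted with all probes above the filter. Precision is limited by having 3 or 4 arrays in a group.

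The named pathway genes are Grk2, Gnas and, per comparison, up to 5 called genes with the largest change; some genes the rule names are not reported here. The members, the lists and the named genes' rule were chosen with earlier results of these data known. The 5 slides were told apart by scan, and 4 arrays carry a different slide in the header.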

Additional observations from a re-analysis of the deposited data

Results flagged for a closer look

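Adcy5 in MuRF1 -/- hearts at 3 weeks: replicate 4, at 0.15, lay apart from the other 3, whose nearest was 0.82, a gap of 0.845 of the group's range. Pde3a in the same group: replicate 4, at 0.53, lay apart from the nearest other heart at 1.18, a gap of 0.855 of the range. Both values come from 1 of the 2 arrays that stood apart. Chance flags about 1 in 20 groups, and 18 were examined, the 9 members in the 2 groups of 4 hearts.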

How the results depend on the processing

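No value that passed the test changed sign under any alternative run. Over single members and alternatives, 2057 values stayed on their side of the threshold, 40 lost the test and 41 gained it. Most that stayed had not passed in the main fit. Other probes aside, the Adra1a call at 3 weeks in MuRF1 +/+ was lost in 13 of 20 alternatives. Pde4b lost its call there in 8 of 20, and Adcy5 in 1 of 20. At 8 weeks in MuRF1 +/+ Adcy5 lost its call in 7 of 19 and Adrb1 in 5 of 19. The Adcy5 call at 3 weeks in MuRF1 -/- was lost in 2 of 20. From 3 to 8 weeks Pde4b lost its call in 1 of 20 in each genotype, and Adcy5 in MuRF1 -/- in 0 of 20. The number of members called changed as follows. At 3 weeks against chow in MuRF1 +/+ (3 called) it was 1 with Agilent's ratio, 1 with no filter on dim probes, 0 when a Y-linked covariate was added, 2 with normexp on all spots, the slide as a block or the replicate block, and 4 with the heart channel alone, the mean of all probes, array weights, only the compared groups or without the 2 arrays that stood apart. At 8 weeks in MuRF1 +/+ (2 called) it was 1 with Agilent's ratio and 0 with normexp on all spots, the series matrix, the Y-linked covariate or only the compared groups in the fit, and 3 with array weights. At 3 weeks in MuRF1 -/- (1 called) it was 0 with normexp on all spots or the series matrix, 2 with the heart channel alone, and 3 with the mean of all probes, array weights or without the 2 arrays that stood apart. Between the genotypes at 8 weeks (0 called) array weights gave 3, but also called 17.6% of all genes, against 0.357% in the main fit. For the difference of the 8-week responses (0 called) array weights gave 2 and called 13.9% of all genes, against 0% in the main fit. From 3 to 8 weeks (1 called in MuRF1 +/+, 2 in MuRF1 -/-), MuRF1 +/+ gave 2 with array weights and 3 without the 2 arrays, and MuRF1 -/- gave 1 with the Y-linked covariate and 3 with the heart channel alone, the mean of all probes or array weights. Apart from leaving out single arrays, the other settings kept these numbers. Leaving out 1 array at a time gave 1 to 2 at 3 weeks in MuRF1 +/+, 0 to 3 at 8 weeks in MuRF1 +/+, 1 to 2 at 3 weeks in MuRF1 -/-, 0 to 2 between genotypes at 8 weeks, 0 to 2 from 3 to 8 weeks in MuRF1 +/+ and 0 to 1 for the difference of the 8-week responses. Over all genes, 3568 calls at 3 weeks in MuRF1 +/+ became 374 with the Y-linked covariate and 6798 with array weights, 2159 at 8 weeks became 76 and 5516, and 3849 at 3 weeks in MuRF1 -/- became 472 and 5783. Shares of all genes with 1 array left out are not given here. With only the compared groups in the fit, 59 genes were called at 8 weeks in MuRF1 +/+. The cause of these changes was not tested. The median of all genes stayed between -0.07 and 0.03 under the alternatives. Of the calls at 3 weeks in MuRF1 +/+, 1788 of 3568 were higher, and the share ran from 44.4% with the strict filter to 60.2% with Agilent's ratio and 66.8% with the Y-linked covariate. At 8 weeks, 853 of 2159 were higher, against 31.1% in the series matrix and 53.6% with array weights. Between the genotypes 53 of 59 were higher at 3 weeks, against 54.5% with Agilent's ratio, and 27 of 52 at 8 weeks, against 73.7% with the heart channel alone.

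Replicate numbers did not pair the hearts: 16 of 46 same-number pairs correlated above 0.1, from -0.58 to 0.45. With the replicate number as a block, 2 members were called at 3 weeks and 2 at 8 weeks in MuRF1 +/+, 1 at 3 weeks in MuRF1 -/-, and 1 and 2 from 3 to 8 weeks. The call of Adra1a at 3 weeks in MuRF1 +/+ was lost under that block (-0.28, limma adjusted p = 0.0946). For dim probes such as Adra1a, signal over background limits what can be measured.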
